A study of Mus musculus with 12 samples.

Results

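Ribosomal protein mRNAs were followed through a map of Argonaute-bound RNA in mouse fetal liver. The set held every peak whose gene name begins with Rpl or Rps and a digit, without the Rps6k kinases, together with Rplp0, Rplp1, Rplp2, Rpsa and Fau. It came to 322 peaks under 100 gene names, of 106382 peaks and 12102 names in all. The rule is by name, so it also took in 28 pseudogene names with 52 peaks, and Rps19bp1, which binds Rps19 and is not a ribosomal protein. All 100 names matched a RefSeq symbol, 73 of them protein coding and 27 pseudogenes. Rpl37rt made up the difference from the 28 names, since RefSeq lists it as protein coding and the files class its peaks as pseudogene.

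The study used HITS-CLIP, in which RNA is crosslinked to Argonaute (Ago), precipitated with an antibody and sequenced as short fragments. Fetal liver cells came from C57BL/6J embryos that were WT or lacked the miR-144/451 locus (labelled miR-144/451-/-, here KO). Ago antibody or Control IgG was used on each genotype, which gave 4 groups of 3 libraries: WT Ago (libraries 1, 9 and 10), KO Ago (3, 12 and 13), WT IgG (2, 6 and 11) and KO IgG (4, 8 and 14). The labels do not say whether libraries came from separate livers, so p-values measure the spread between these libraries, which may be technical. Embryo age and the extent of the deletion are not stated in the labels.

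Ribosomal proteins build the large subunit (Rpl genes) and the small subunit (Rps genes, Rpsa and Fau) around the ribosomal RNAs, and Rplp0, Rplp1 and Rplp2 form the P stalk, which recruits the translation factors. Their mRNAs are short and abundant, and most start with a 5′ terminal oligopyrimidine (TOP) tract through which mTOR controls their translation. Erythroid precursors, the main cells of the fetal liver, depend on them strongly, and losing a copy of RPS19, RPL5, RPL11 and several others causes Diamond-Blackfan anaemia, a failure of red cell production. The miR-144/451 locus makes miR-144 and miR-451a, which are abundant in these cells. A microRNA guides Ago to mRNA through its seed, which pairs with a short complementary stretch.

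The mature microRNAs are shown because the files score each peak against them. Of these, miR-451a and miR-144-3p come from the locus missing in KO. The other miR-144 strand, miR-144-5p, belongs to the same locus and is also scored, but its sequence is not shown. Capitals mark the seed, bases 2 to 8, from RefSeq (GRCm38.p6). miR-16-5p, from another locus, is shown for comparison.
miR-451a: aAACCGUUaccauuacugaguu
miR-144-3p: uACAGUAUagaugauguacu
miR-16-5p: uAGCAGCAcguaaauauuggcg
The 3 seeds differ. In an mRNA their full matches read AACGGTT for miR-451a, ATACTGT for miR-144-3p and TGCTGCT for miR-16-5p. The deposited code of a peak gives its best match. Codes 2 to 7 mean a mismatch at that seed position, 8 an offset 6-mer, 11 a 6-mer, 12 a 7-mer with A opposite base 1, 13 a 7-mer to base 8, and 14 an 8-mer. The peak sequences themselves were not read here.

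The Ago libraries held 147969 to 452157 reads in peaks and the IgG libraries 24622 to 42916. No peak overlapped Mir144 (chromosome 11, 78073005 to 78073070, mm10) or Mir451a (78073170 to 78073241), so the genotype is taken from the labels. Among all tested peaks with a miR-451a match of 6-mer or longer, 79 of 84 were lower in KO. Peaks of erythroid markers, present for 6 of 10 listed genes, took 0.797% to 0.911% of the reads in WT Ago and 0.508% to 0.599% in KO Ago. Hepatocyte markers, present for 9 of 9, took 0.583% to 1.72% and 1.09% to 2.12%. In the IgG libraries the genotypes overlapped. Erythroid markers took 0.598% to 0.843% in WT IgG and 0.576% to 0.658% in KO IgG, and hepatocyte markers 1.54% to 2.26% and 1.73% to 2.45%. The libraries are of whole liver, so fewer cells of a type and less RNA per cell cannot be told apart. No mRNA level was measured beside the Ago reads, so neither can be told apart from less Ago on the marker mRNAs.

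Ribosomal protein peaks lay in coding sequence more often than peaks with a gene name at large. Of the 322 peaks, 180 (55.9%) were coding, against 42.6% of all peaks that have a gene. In 3′UTRs lay 60 (18.6%), against 35.4%. A further 19 (5.90%) lay in 5′UTRs, against 2.71%, and 10 (3.11%) in introns, against 14.7%. The median width was 31 nt, against 27 nt. These shares are descriptions, since peaks of a gene are not independent of each other.

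The peaks were spread thinly over many genes. The median name had 2 peaks and 32 names had 1. Rpl4, a large subunit protein, had the most with 17, and Rpl13a had 12. Rpl14, Rpl8 and Rps3 had 11 each. The P stalk scaffold Rplp0 had 10, as did Rps9. Most peaks were shallow. The minimum count filter left 22 peaks to test, with 49 to 170 Ago reads (median 80), and the other 300 held 5 to 54 (median 13). Of 57 coding members with a RefSeq promoter window, 12 (21.1%) began, at the annotated start and on the gene's strand, with C followed by 4 letters that were each C or T. Among all 17491 such genes 467 (2.67%) did.

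Some member peaks hold the same or nearly the same counts as a row elsewhere in the genome. Of 131 peaks with 20 or more reads, 15 had the same 12 counts as a row of another name or of no gene, and 15 more nearly did. Some near matches were to genes of other kinds, such as Vmp1 for a Rpl13a peak and Iqgap3 for a Rpl8 peak. A near match therefore need not mean shared reads. Copies of another width or with fewer reads were not counted, among them the deepest Fau peak and its Gm9843 copy described below. The deepest peaks of Rpl37, a large subunit protein, and Rpl37rt carried the same counts in every library. So did a peak each of Rps10 and Rps10-ps2, and of Rpl36al and Rpl36a-ps3. The other peaks of Rpl37 and Rpl37rt differed by single reads. A Rpl23 peak matched a clone-named gene, a Rpl4 peak matched Gm5835, and a Rps21 peak matched Gm5963. Reads in such pairs of peaks cannot be assigned to one copy, so each pair of peaks is one measurement under 2 names.

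The first comparison asked which Ago-bound ribosomal protein sites had fewer or more reads without the locus. In KO Ago against WT Ago, 5 of the 22 tested member peaks were lower and 0 were higher. Over all 2425 tested peaks, 17.6% were lower and 1.4% were higher. The member share was thus close to the background for lower peaks. Calls are those of edgeR (quasi-likelihood, Benjamini-Hochberg over every tested peak) at an adjusted p under 0.05. At an unadjusted p under 0.05, 2 member peaks were higher, and DESeq2 and limma-voom also called 0 higher. The median log2 change of the 22 was 0.17, against 0.09 for all tested peaks. With library size alone as the scaling, these medians were 0.33 and 0.25.

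All 5 lower peaks lay in coding sequence, in 3 small subunit genes (Fau, Rps3 and Rps19) and 2 large subunit genes (Rpl32 and Rpl4). Their levels are given in CPM, counts-per-million of the TMM-scaled reads of tested peaks.

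Fau encodes a ubiquitin-like protein fused to the small subunit protein eS30. Its coding peak (chromosome 19, 6059146 to 6059180, plus strand, mm10) held 69, 51 and 42 WT Ago reads (libraries 1, 9 and 10, in this order throughout). Its KO Ago reads were 1, 4 and 2 (libraries 3, 12 and 13). Every KO library was far below every WT library, and the groups did not overlap. The level fell from 1291 ± 440 CPM to 60.5 ± 26.7 (SD, n = 3 each), a log2 change of -4.30 ± 0.48 (SE; edgeR adjusted p = 7.1e-05). This was the only member peak with a miR-451a match of 6-mer or longer (code 11). IgG libraries held 3 reads there in WT and 1 in KO.

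The Fau site has a near copy on chromosome 16 (76403396 to 76403437), under the name Gm9843. That row held 67, 56 and 43 WT reads and 1, 6 and 3 KO reads. These counts nearly repeat those of Fau, and the log2 change was -3.84 ± 0.45 (edgeR adjusted p = 7.1e-05). The reads of both rows cannot be told apart.

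Rpl32 encodes a large subunit protein. Its peak (chromosome 6, 115807079 to 115807108, minus strand) held 21, 31 and 27 WT reads and 2, 0 and 1 KO reads. The KO libraries were at or near 0 and did not overlap the WT libraries. The level fell from 631 ± 222 to 32.5 ± 30.1 CPM (SD, n = 3 each), by -4.36 ± 0.63 on the log2 scale (edgeR adjusted p = 1.6e-04). Its code was a miR-451a mismatch at position 7, and its counts equalled those of a row outside any gene.

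Rps3, a small subunit protein at the mRNA entry channel that also has a DNA repair role, had a peak (chromosome 7, 99481697 to 99481725, minus strand) with the same code 7. It held 59, 26 and 27 WT reads and 10, 9 and 5 KO reads. WT library 1 was the highest, and the groups did not overlap. The log2 change was -2.04 ± 0.47, from 913 ± 511 to 219 ± 68.1 CPM (SD, n = 3 each; edgeR adjusted p = 0.0045).

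Rpl4 encodes a large subunit protein whose extended loop lines the exit tunnel. Its lower peak (chromosome 9, 64176100 to 64176144, plus strand) held 15, 27 and 10 WT reads and 3, 4 and 7 KO reads, with a miR-451a mismatch at position 6. KO library 13, the shallowest, came closest to the WT libraries but stayed below them in CPM. The level fell from 375 ± 51.8 to 143.7 ± 106 CPM (SD, n = 3 each), a log2 change of -1.57 ± 0.45 (edgeR adjusted p = 0.022).

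Rps19 encodes the small subunit protein most often mutated in Diamond-Blackfan anaemia. Its peak (chromosome 7, 24885136 to 24885159, plus strand) held 38, 42 and 26 WT reads and 16, 18 and 10 KO reads, and carried a miR-144-3p 7-mer (code 12). All KO libraries were below all WT libraries. The log2 change was the smallest of the 5, -1.03 ± 0.31, from 817 ± 131 to 399 ± 69 CPM (SD, n = 3 each; edgeR adjusted p = 0.030).

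The calls for Fau, Rpl32 and Rps3 held in all 10 alternatives run for each, whereas those for Rpl4 and Rps19 did not. Rpl4 lost its call under DESeq2, without the filter, and on dropping KO library 12 (-1.13) or 3 (-1.35) of the Ago set. Rps19 lost it in 7 of 10 alternatives, with adjusted p from 0.027 to 0.14. With KO Ago library 12 dropped, 3 of 18 tested member peaks were lower in the edgeR fit, and with WT Ago library 1 dropped, 3 of 17.

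**Figure D1:**
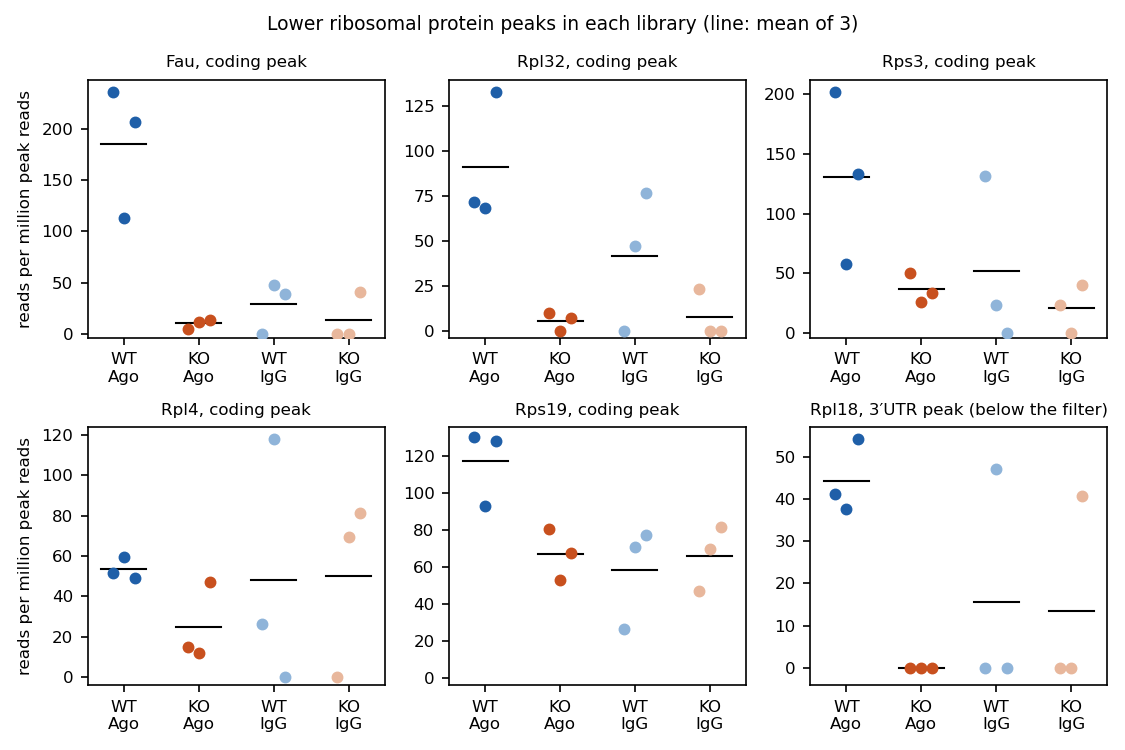
Reads-per-million of all peak reads (vertical axis, from 0) in each of the 12 libraries for the 5 lower coding peaks and for a Rpl18 3′UTR peak below the count filter, with points for libraries and a line for the mean of 3. In each panel the KO Ago points lie below the WT Ago points, and the IgG points, from 1 to 6 reads per group, scatter widely.

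The control precipitations hold few reads at these sites. Over WT libraries, the Fau peak had 6.07-fold more reads, relative to all peak reads, in Ago than in IgG (95% interval 2.04 to 29.7, counting error only). The interval of the ratio included 1 for Rpl32 (2.22, 0.833 to 8.34), Rps3 (2.10, 0.934 to 5.83), Rps19 (1.98, 0.882 to 5.53) and Rpl4 (0.973, 0.418 to 2.77). In KO, the Fau ratio was 0.981 (0.126 to 44.2). A difference between Ago and IgG was therefore detectable at this depth only for the Fau peak in WT, among these 5 peaks.

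Lower peaks were next set beside the other peaks of the same genes. The Fau peak had 16.8-fold fewer KO reads after scaling by total peak reads (7.97 to 42.5), and the other 5 Fau peaks together had 2.30-fold fewer (1.503 to 3.63). The Rpl32 peak had 19.1-fold fewer (6.31 to 94.7), and for its other 3 peaks WT over KO was 0.780 (0.446 to 1.37). The Rps3 ratio was 3.39 at the lower peak (2.17 to 5.51) and 1.23 over the other 10 (0.946 to 1.59). The intervals of the lower peak and of the rest of the gene did not meet for Fau, Rpl32 and Rps3. For Rpl4 the ratio was 2.70 (1.47 to 5.27) against 0.863 over the other 16 (0.705 to 1.06), also apart. For Rps19 the rest of the gene, 2 peaks, had a ratio of 2.36 (1.04 to 6.03), and its interval overlapped that of the lower peak (1.75, 1.22 to 2.55). The peaks were picked for being lower, so these ratios are descriptions.

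The other 17 tested peaks were not called, with log2 changes from -0.51 to 1.14. The 5 with the smallest p were all above 0. Rpl14-ps1, a copy of the large subunit gene Rpl14, held 3, 8 and 6 WT reads and 9, 15 and 8 KO reads. All KO libraries were above all WT libraries in CPM, but the change of 1.14 ± 0.43 missed the threshold (edgeR adjusted p = 0.081). Scaled by library size alone, it passed (edgeR adjusted p = 0.041).

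Rpl14 itself changed by 0.95 ± 0.42. The shared Rpl37 and Rpl37rt row held 1, 15 and 9 WT reads and 10, 24 and 10 KO reads, a log2 change of 1.04 ± 0.50 (edgeR adjusted p = 0.20). WT library 1, with a single read, was far below the other WT libraries. A deep uncalled peak, in the 3′UTR of Rpl13, changed by 0.39 ± 0.29 on 158 reads.

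Further uncalled peaks spanned all parts of the ribosome. In the large subunit, Rpl8 changed by 0.37 and Rpl15 by 0.44 on the log2 scale, Rpl6 by 0.11, and Rpl3, at the peptidyl transferase centre, by -0.36. An intron peak of Rpl13a changed by 0.36, and a 3′UTR peak of Rps27l, a small subunit paralog, by 0.21. In the P stalk, the only tested peak, in Rplp1, changed by 0.33. A second Rpl4 peak changed by -0.51 and a second Rps3 peak by -0.20. By subunit, 2 of 14 tested large subunit peaks and 3 of 7 small subunit peaks were lower, against 17.6% of all tested peaks. The medians were 0.37 and -0.20, and the difference between subunits was not tested.

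**Figure D2:**
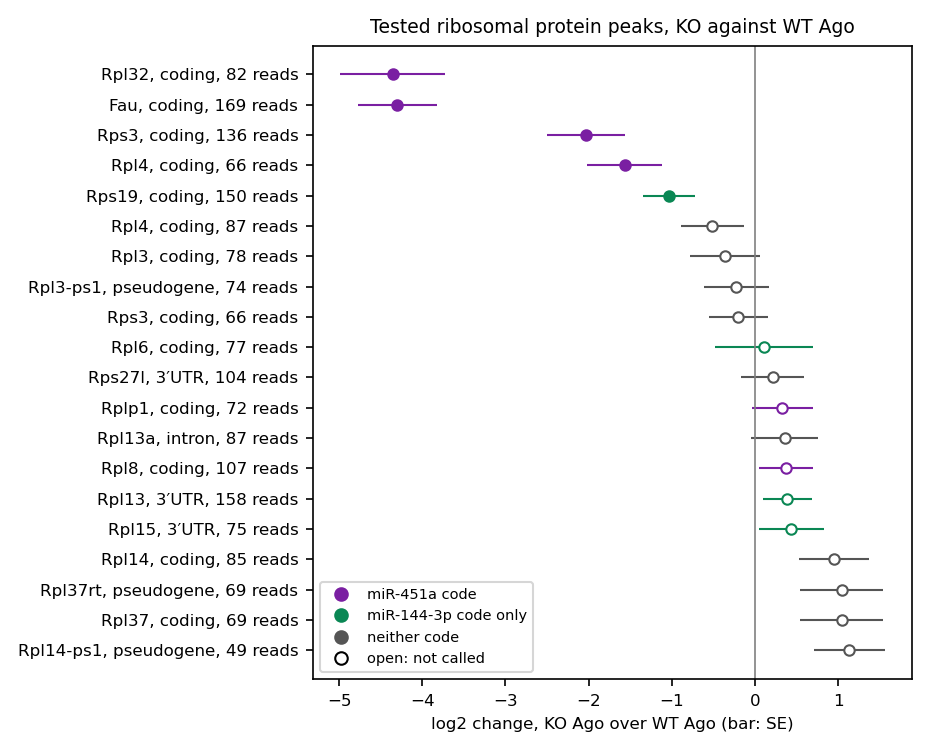
Log2 change of KO Ago over WT Ago (horizontal axis) with its SE for 20 of the 22 tested member peaks, labelled by gene, region and Ago reads and coloured by seed code, with filled points for peaks past the threshold. The 5 filled points run from -4.36 to -1.03, and all have a miR-451a or miR-144-3p code.

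All 5 lower peaks carried a seed code of the deleted locus. Of 11 tested members with a code for miR-451a or miR-144-3p, 5 were lower, and of 11 without, 0. Over all tested peaks these shares were 338 of 1039 (32.5%) with a code and 90 of 1386 (6.49%) without. Among tested members with a miR-451a code 4 of 6 were lower, and the members that were not were Rplp1 and Rpl8. Over all tested peaks with that code, 224 of 425 (52.7%) were lower. With a miR-144-3p code 1 of 6 members was lower, Rps19, and over all tested peaks 198 of 772 (25.6%) were. With a miR-16-5p code, 0 of 5 were lower, and over all tested peaks 20 of 313 (6.39%) were.

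Codes were counted over all member peaks. A miR-451a code was present in 40 (12.4%) of member peaks and in 11.9% of all peaks, and a miR-144-3p code in 52 (16.1%) and in 26.3%. A miR-144-5p code was present in 30 (9.32%) of member peaks and in 10.6% of all peaks. A full miR-451a match, a 6-mer or longer, was found in 1 member peak (0.311%) and in 1.03% of all peaks. Full miR-144-3p matches were found in 13 (4.04%) and in 3.32%. The 13 were 3′UTR peaks of Rpl27a, Rpl36al, Rpl37a, Rplp0 and Rps3, an intron peak of Rps12, coding peaks of Rpl32, Rps6 and Rps19, and pseudogene peaks of Rps6-ps4, Rps19-ps7, Rps19-ps10 and Rps19-ps13.

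Only Rpl27a carried an 8-mer among them, in its 3′UTR (chromosome 7, 109522254 to 109522285), with 3, 4 and 1 WT reads and 0, 2 and 0 KO reads. This peak was below the filter, and the ratio of 2.91 had an interval of 0.580 to 28.1. The Rps19 pseudogenes carried the same code 12 as Rps19. Rps19-ps10 held 7, 8 and 4 WT reads and 2, 1 and 1 KO reads. Its direction was that of Rps19, and whether its reads come from Rps19 cannot be told.

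Read by exact code over all members, tested or not, the ratio of WT to KO reads was furthest from 1 at the 6-mer of miR-451a (16.8, the Fau peak alone). At mismatches in position 7 it was 3.20 over 9 peaks (2.40 to 4.32), in position 5 it was 2.59 over 9 (1.77 to 3.89), and in position 6 it was 1.49 over 8 (1.08 to 2.08). At mismatches in position 2 it was 1.11 over 9 peaks (0.831 to 1.496), an interval that includes 1. For miR-144-3p, 6-mers gave 2.12 over 6 peaks (1.30 to 3.56) and 7-mers of code 12 gave 1.89 over 4 (1.37 to 2.63). Of the 6-mer peaks, all but that of Rpl32 also carried a miR-451a mismatch code, so the groups overlap. The Rps6 and Rps6-ps4 peaks among them held the same counts and enter the ratio under both names. Mismatches in position 7 gave 0.986 over 13 peaks (0.825 to 1.18) and in position 6 gave 0.769 over 13 (0.646 to 0.915). Below 1 too were position 4 of miR-144-3p, at 0.484 over 6 peaks (0.289 to 0.800), and position 3 of miR-451a, at 0.726 over 3 (0.510 to 1.03). These intervals cover counting error only, and single peaks weigh heavily in them.

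Summed over all 40 member peaks with a miR-451a code, Ago reads were 1048, 752 and 1050 RPM (reads-per-million of all peak reads) in WT and 488, 367 and 568 in KO. The groups did not overlap, and the mean went from 950 ± 171 to 474 ± 101 (SD, n = 3 each). The ratio of WT to KO reads was 2.04 (1.79 to 2.33). Over all peaks of the series with a miR-451a code it was 1.74 (1.72 to 1.75). Without the called peaks the member mean went from 489 ± 37.1 to 397 ± 75.4, and the groups overlapped. With a miR-144-3p code only, the member mean went from 757 ± 86 to 795 ± 57.1, a WT to KO ratio of 0.940 (0.838 to 1.05). Over all such peaks of the series the ratio was 1.08 (1.07 to 1.08). No test was run on these sums, since the members were chosen with earlier results known.

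With neither code, the 242 remaining member peaks held 2589, 2572 and 3002 RPM in WT and 3561, 3395 and 3514 in KO. Every KO library was higher, with a KO over WT ratio of 1.30 (1.23 to 1.37). Over all peaks of the series without either code, the same ratio was 1.15 (1.14 to 1.15). Shares of reads sum to a fixed total, so the 3 groups of peaks are not independent. Erythroid markers took 0.508% to 0.599% of KO Ago reads and 0.797% to 0.911% of WT Ago reads, without overlap, while the genotypes overlapped in IgG. The part of these markers in the ratios was not tested.

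**Figure D3:**
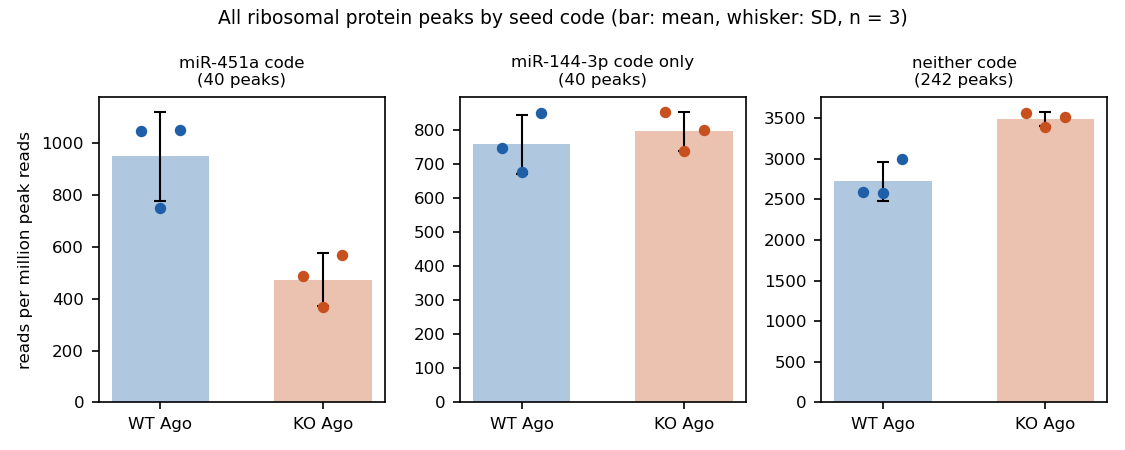
Reads-per-million of all peak reads (vertical axis) summed over all 322 member peaks in 3 groups by seed code, in WT Ago and KO Ago, with points for libraries, bars for the mean and whiskers for the SD (n = 3). The miR-451a bar is 950 in WT and 474 in KO, while the bar of peaks with neither code is 2721 and 3490.

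Below the count filter lay further lower peaks. Fitted without the filter, 7 of 322 member peaks were lower, of which 4 had not been tested before. The share of lower peaks among all 106381 peaks of that fit is not given here. The 7 can therefore not be set against a background. The largest was a 3′UTR peak of Rpl18, a large subunit protein named in Diamond-Blackfan anaemia (chromosome 7, 45720792 to 45720819, plus strand). It held 12, 17 and 11 reads in WT and 0 in every KO library (edgeR adjusted p = 5.1e-05 without the filter). With a floor of 3 reads set for the KO group the ratio of WT to KO was 9.68, which is not a confidence limit. The peak carried mismatch codes for both locus microRNAs, and its counts were nearly those of a row outside any gene.

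The others were smaller. A second Fau coding peak (6058556 to 6058572) without a code held 12, 13 and 11 WT reads and 0, 3 and 2 KO reads. A Rpl10 coding peak (chromosome X, 74270941 to 74270971) held 4, 7 and 4 reads and 0 in KO, with a miR-144-3p mismatch code. Its ratio against the same floor was 3.63. A Rpl36al 3′UTR peak (chromosome 12, 69182741 to 69182771) with a miR-144-3p 6-mer held 14, 16 and 5 WT reads and 2, 2 and 2 KO reads. None of these peaks, which were picked for being lower, overlapped between WT and KO in reads. They were called in the fit without the filter, in which Rpl4 and Rps19 were not.

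In the authors' deposited table of differential peaks, 26 member peaks were listed, of 6651. At a false discovery rate of 0.05 that table gave 9 as lower and 0 as higher, against 35.7% lower over the whole table. It held the 5 peaks above, with log2 changes of -4.50 (Fau), -4.33 (Rpl32), -2.23 (Rps3), -2.08 (Rpl4) and -1.44 (Rps19). It further listed Rpl10 (-3.60), Rplp0 (-2.11), Rps19-ps10 (-1.96) and Rps18 (-1.30), none of which the filtered edgeR fit tested. The authors' deposited table was made with limma on a set of peaks chosen otherwise.

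Ago reads were then summed over all peaks of each gene, to ask whether a gene's total changed. Of 33 tested member names, 3 were lower and 2 higher. Over all 4441 tested genes 5.29% were lower and 0.653% were higher. The 2 higher names, Rpl37 and Rpl37rt, share nearly all their reads. Another 28 were not called, and 67 names were below the filter. The median log2 change was 0.27 over the members and 0.03 over all genes. Names that share reads, such as Rpl37 and Rpl37rt, count as separate members in that median.

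Fau fell at gene level, with 101, 88 and 65 WT reads and 10, 18 and 8 KO reads over its 6 peaks. No KO library came near a WT library. The level went from 416 ± 139 to 72.4 ± 4.90 CPM (SD, n = 3 each), a log2 change of -2.50 ± 0.32 (edgeR adjusted p = 7.3e-04). The call held in 12 of 12 alternatives.

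Rpl18 held 14, 24 and 12 WT reads and 3, 2 and 1 KO reads over 2 peaks, and fell by -2.59 ± 0.54 (edgeR adjusted p = 0.012). Rpl32 held 27, 48 and 33 and then 11, 12 and 7 over 4 peaks, and fell by -1.45 ± 0.34 (edgeR adjusted p = 0.022). In both genes the groups did not overlap. Rpl32 lost its call under DESeq2 (-1.45, adjusted p = 0.062), and with only peaks of a deposited IgG ratio under 0.2 its change was -2.47. With shared peaks left out, which removed its lower peak, Rpl32 was not tested and 2 member genes were lower. On dropping KO Ago library 13, the Rpl18 change was -2.51 (edgeR adjusted p = 0.053) and the Rpl32 change -1.50, and both calls were lost. On dropping KO Ago library 12 the Rpl32 change was -1.15 and its call was lost. Rpl18 was tested in 9 alternatives and kept its call in 8. On dropping KO Ago library 12, or WT Ago library 1 or 9, Rpl18 was below the filter and not tested. Dropping KO Ago library 12 or 13 left 1 member gene as lower.

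Rpl37 held 9, 27 and 15 WT reads and 23, 47 and 22 KO reads over 3 peaks, and rose by 1.26 ± 0.30 (edgeR adjusted p = 0.024). Rpl37rt, which shares its reads, gave 1.23 ± 0.29 (edgeR adjusted p = 0.023). In CPM all KO libraries were above all WT libraries. The call was lost in 6 of 12 alternatives, among them the fits that dropped WT library 1 (1.01), WT library 9, KO library 12 or KO library 13, and DESeq2. In each of these 0 member genes were higher.

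Genes near the threshold lay on both sides. Rps19 changed by -0.96 ± 0.27 (edgeR adjusted p = 0.054) and Rps3 by -0.88 ± 0.32 (edgeR adjusted p = 0.13). Rpl23, a large subunit protein that binds the p53 regulator Mdm2, changed by 0.85 ± 0.28 (edgeR adjusted p = 0.096). Rpl4, which held a lower peak, changed by 0.01 ± 0.24 over its 17 peaks. The P stalk genes Rplp0 (0.07), Rplp1 (0.59) and Rplp2 (0.15) were not called.

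**Figure D4:**
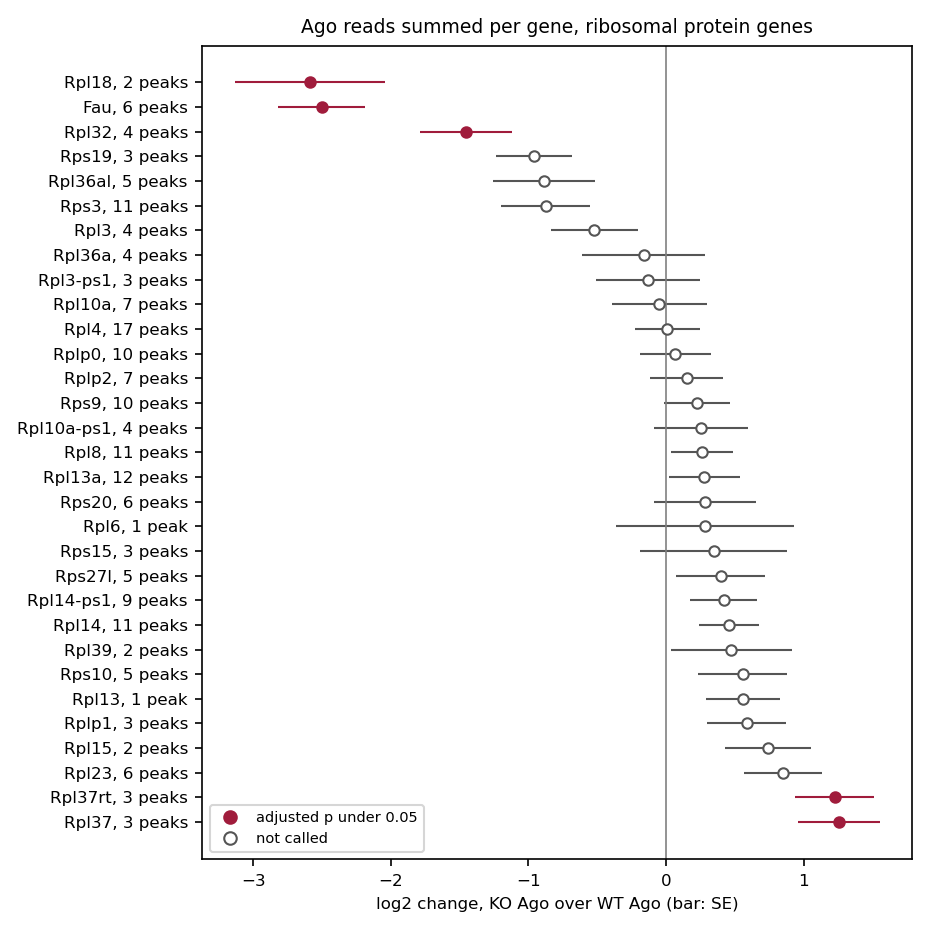
Log2 change of KO Ago over WT Ago (horizontal axis) with its SE for 31 of the 33 tested member names, from reads summed over the peaks of each, with filled points past the threshold. Rpl18, Fau and Rpl32 lie between -2.59 and -1.45, Rpl37 and Rpl37rt at 1.26 and 1.23, and the other 26 shown are open.

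Other genes of the translation machinery were counted in the same Ago fits, where 17.6% of all peaks and 5.29% of all genes were lower and 0.653% of genes higher. Of 18 tested peaks of translation factors and other TOP mRNAs, 2 were lower: one in Gnb2l1, the ribosome-bound scaffold RACK1 (-2.25), and one in Eef2, the elongation factor that moves the ribosome along (-1.18). At gene level 0 of 23 were lower and 1 higher, the helicase Eif4a2 (0.88 ± 0.22). Of 14 tested ribosome assembly genes, 1 was lower, Ubtf (-1.29), which drives transcription of ribosomal RNA. Of 10 mitochondrial ribosomal protein genes, 1 was lower, Mrpl50 (-1.86). Median gene-level changes were 0.01, 0.08 and 0.20 for these lists, against 0.03 over all genes. Of the genes named in Diamond-Blackfan anaemia, only 2 peaks and 4 genes were tested, of which the Rps19 peak and the Rpl18 gene were lower.

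The genotype comparison in the IgG libraries served as the background. Of 251 tested genes, edgeR called 0.0% lower and 0.0% higher, and 2 had an unadjusted p under 0.05. Only 1 member, Rpl4, passed the filter there, and it was among those 2. It held 18, 18 and 13 WT IgG reads and 7, 7 and 5 KO IgG reads, so the groups did not overlap. Its log2 change of -1.22 ± 0.43 was not called (edgeR adjusted p = 0.98). DESeq2 and limma-voom also called 0 members.

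The antibody comparison asked how Ago reads of ribosomal protein genes stood against control IgG, relative to other genes with peaks. In WT, 3 of 17 tested member genes were lower in Ago and 0 higher. Over all 2603 tested genes 13.0% were lower and 2.0% higher. The IgG libraries are much shallower, so a gene with few reads passes the filter more easily where its IgG share is high, and values over the members that passed do not stand for all members. Their median was -0.65 on the log2 scale, against 0.13 over all tested genes. Without the filter it was 0.33 over all 100 members, against 1.21 over all genes. The sign of the member median thus turned with the filter, while it lay below that of all genes in both fits. At an unadjusted p under 0.05 in the edgeR fit, 1 was higher, Fau, and DESeq2 and limma-voom called 0 higher.

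Rps9, a small subunit protein, held 8, 18 and 8 reads in WT IgG and 32, 57 and 26 in WT Ago, from much deeper libraries. In CPM this was 824 ± 408 in IgG and 186 ± 14.8 in Ago (SD, n = 3 each), without overlap. The log2 ratio was -2.14 ± 0.42 (edgeR adjusted p = 7.1e-05). Rps20, with 8, 6 and 5 IgG reads and 14, 20 and 13 Ago reads, stood at -2.53 ± 0.56 (edgeR adjusted p = 4.4e-04), and Rpl4 at -1.41 ± 0.33 (edgeR adjusted p = 8.0e-04). Without the filter Rps9 was at -1.36 and Rps20 at -1.77, both still called, and Rpl4 was at -0.65 and no longer called (edgeR adjusted p = 0.31).

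Without WT IgG library 6, which held most of the Rps9 IgG reads, Rps9 was at -1.41 (edgeR adjusted p = 0.092) and Rpl4 at -1.11 (edgeR adjusted p = 0.078). Rpl13a (-1.11) had Ago and IgG libraries apart but was not called.

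Fau stood at the other end. It held 0, 3 and 3 reads in WT IgG and 101, 88 and 65 in WT Ago, a log2 ratio of 1.60 ± 0.62 that was not called (edgeR adjusted p = 0.075). On dropping WT IgG library 11 the ratio was 2.38 and on dropping library 6 it was 2.22, and both passed in edgeR. On dropping WT IgG library 2, which held 0 Fau reads, it was 1.12 (edgeR adjusted p = 0.20). It also passed with library size alone (1.85) and without the filter (2.34), and not under DESeq2 (1.71) or limma-voom (1.66). Rplp0, at 0.39 ± 0.75, was the only other member above 0 among the 17 tested with the filter.

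In KO, 1 of 14 tested members was lower in Ago, Rps9 (-1.53 ± 0.47, edgeR adjusted p = 0.024), and 0 were higher. Over all 1988 tested genes 10.4% were lower and 2.16% higher. The median of those that passed was -0.68, against 0.22 over all tested genes. Without the filter the medians were 0.37 and 1.29. At an unadjusted p under 0.05 in the edgeR fit 0 members were higher, and DESeq2 and limma-voom called 0 higher. Lower members numbered 2 under DESeq2 and without the filter, and 0 under limma-voom and with library size alone. On leaving out a library, 0 to 7 members were lower, of 4 to 29 tested. These were 7 of 29 without KO IgG library 4, 2 of 26 without KO IgG library 8 and 0 of 25 without KO IgG library 14. The share of all genes lower in these refits is not given here, so the counts cannot be set against a background. With any KO Ago library dropped, 4 were tested and 0 were lower. Rpl13 (-1.40) and the P stalk protein Rplp1 (-1.31) came next in p.

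**Figure D5:**
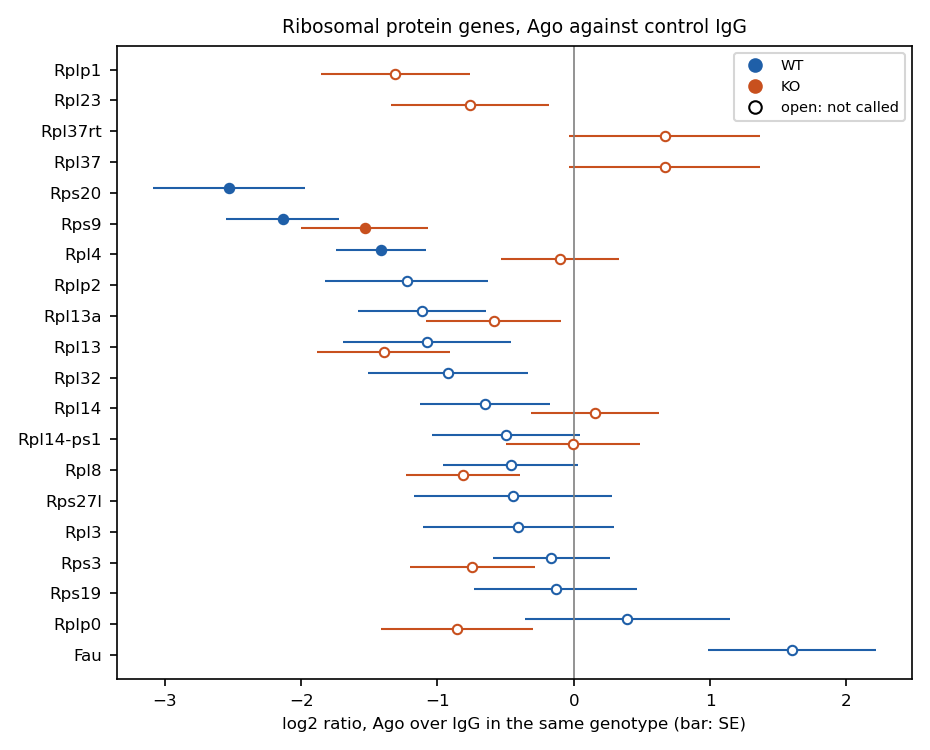
Log2 ratio of Ago over IgG reads per gene (horizontal axis) with its SE for 16 members tested in WT and 13 tested in KO, with filled points past the threshold. Among these members, which passed the count filter, most points lie below 0, with Rps20, Rps9 and Rpl4 filled in WT and Rps9 in KO, and Fau in WT at 1.60 is the furthest above 0.

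Whether the genotype change differed between Ago and IgG was tested with an interaction of genotype and antibody over all 12 libraries, a fit added after the data had been seen. In edgeR it called 0.0% of 2654 genes, with 121 at an unadjusted p under 0.05. Of 21 members 0 were called. Rpl4 alone had an unadjusted p under 0.05, with a log2 difference of 1.24 ± 0.51 (edgeR adjusted p = 0.91). For Fau the difference was -1.63 ± 1.30 (edgeR adjusted p = 0.94). DESeq2 and limma-voom were not run on the interaction.

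As a share of all peak reads, ribosomal protein peaks differed little among the groups. They took 0.438%, 0.400% and 0.490% of WT Ago reads, and 0.490%, 0.450% and 0.488% of KO Ago reads. The groups overlapped, at 0.443% ± 0.0451 and 0.476% ± 0.0226 (SD, n = 3 each). The IgG libraries took 0.408%, 0.429% and 0.516% in WT and 0.405%, 0.336% and 0.621% in KO. Their means of 0.451% ± 0.0570 and 0.454% ± 0.149 (SD, n = 3 each) lay within the Ago range.

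The deposited IgG ratio of single peaks was also compared. Among member peaks 200 (62.1%) had a deposited IgG ratio under 0.2, against 71.6% of all peaks, and the median ratio was 0.155 against 0.0438. Limited to peaks under 0.2, members took 0.400% ± 0.0650 in WT Ago, 0.415% ± 0.0517 in KO Ago, 0.650% ± 0.201 of WT IgG and 0.601% ± 0.164 of KO IgG reads (SD, n = 3 each). This limit uses the IgG over Ago ratio itself, so it sets the comparison of Ago with IgG, and these shares are values only.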

How the data were processed

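HITS-CLIP was run on 12 libraries, 3 per group. The submitters' processing notes name the tools STAR, cutadapt, limma and bedtools and the build mm10, with no version or role. The authors' deposited peak table gives raw read counts per peak and library, an IgG ratio (summed IgG over summed Ago peak height) and seed codes, which are a score of the best match. The authors' deposited differential table gives log2 changes, p-values and false discovery rates; its changes had a slope of 0.95 on the edgeR log2 changes over 1114 shared peaks. Coordinates are mm10, 1-based.

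Counts were tested with edgeR 4.0.16 (R 4.3.3; TMM, filterByExpr with minimum count 10 and minimum total 15) on the 6 libraries of each comparison, over all features. Levels are CPM over tested features. Ratios of summed reads use total peak reads with exact 95% intervals and, at 0 reads, a floor of 3 reads per group, for counting error only, since molecular identifiers are not known. On simulated counts for KO against WT Ago peaks (2425 features), 26.6% of 2-fold and 97.0% of 4-fold changes were recovered. Alternatives were DESeq2 1.42.0, limma-voom 3.58.1, library size alone, no filter, peaks with an IgG ratio under 0.2, shared peaks left out, and each library left out.

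The members and lists were chosen with earlier results of these data known, so a planned permutation test of the read share is not reported. Named items are all called members, the uncalled peaks with the 5 smallest p and the 5 highest read numbers, per direction the 5 genes of smallest p for Ago against IgG in WT, and peaks with full seed matches; a few members that this rule names are counted in the totals but not reported here. Rows sharing counts were at first matched within 1 read; this was narrowed, after seeing the data, to peaks of 20 or more reads that differ by at most 10% and 2 bases in width.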

Additional observations from a re-analysis of the deposited data

How the results depend on the processing

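Lower member peaks in KO against WT Ago numbered 5, and 3 under DESeq2 and 3 to 7 on leaving out each library. Higher peaks numbered 0, and 1 with library size alone (Rpl14-ps1) and 0 to 1 on leaving out a library. Lower genes numbered 3, and 2 under DESeq2, 2 without shared peaks, and 1 to 4 on leaving out a library. Higher genes numbered 2, and 0 under DESeq2, 0 without shared peaks, and 0 to 2 on leaving out a library. For Ago against IgG in WT, lower genes numbered 3, 2 to 4 on leaving out a library, and 0 at an IgG ratio under 0.2. Higher genes there numbered 0, and 1 with library size alone, 1 without the filter and 0 to 1 on leaving out a library. In KO, lower genes numbered 1, and 2 under DESeq2, 2 without the filter, 0 at an IgG ratio under 0.2, 0 with library size alone, 0 with limma-voom and 0 to 7 on leaving out a library. Shares over all features in these alternatives are not given here, so the member counts have no background beside them. Leaving out a library also changed how many members passed the filter. For KO against WT Ago, 17 to 37 peaks and 33 to 41 genes were tested. For Ago against IgG, 3 to 35 genes were tested in WT and 4 to 29 in KO. The Ago minus IgG difference in read share, in percentage points, moved from -0.0082 to -0.250 in WT and from 0.0217 to -0.186 in KO at an IgG ratio under 0.2. On leaving out a library it ran from -0.0318 to 0.0241 in WT and from -0.0375 to 0.105 in KO. The limit on the IgG ratio is set by the Ago and IgG reads it is then applied to, so its Ago against IgG values are no check; Rpl4 in WT kept its change there (-1.41) and Rps9 and Rps20 were not tested. The cause of the other shifts was not tested. Depth limits all of this: 300 of 322 member peaks were below the count filter, and IgG libraries held 97 to 182 member reads each. No paired analysis was possible because no library number occurs in more than 1 group and the labels tie no libraries together.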
